A study of Mus musculus with 6 samples.

Results

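The messages described here encode 10 large proteins of the centrosome and spindle pole: Aspm, Cep192, Cep250, Cep290, Pcnt, Pcm1, Cdk5rap2, Nin, Akap9 and Cenpj. They were taken by name from the 51912 genes to which the sequenced transcripts could be matched, and all 10 were found and had enough reads to be among the 13231 genes tested. The members were chosen by name with their values in the eluate and pellet libraries in view, so those differences are given as a description. The RNA came from the mouse embryonic stem cell line E14, grown with serum and leukemia inhibitory factor and given 100 µg/mL of the elongation blocker cycloheximide for 3 minutes before harvest. Ribosomes were pelleted through a sucrose cushion, and part of each pellet was extracted directly while the rest was passed over a cysteine-charged resin and eluted, the added step of the RAPIDASH ribosome purification. Poly(A) RNA of 3 pellets and 3 eluates was sequenced, and the comparison asks how the content of messages differs between eluates and pellets. Libraries carry replicate numbers, but the labels leave unsaid whether a pellet and an eluate of the same number came from 1 cushion. Every library carries the same line and the same cycloheximide treatment, so no untreated cells and no whole lysate stand beside them.

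The centrosome is a pair of centrioles embedded in pericentriolar material, a protein scaffold that gathers gamma-tubulin and starts microtubules. It is duplicated once per cell cycle, forms the spindle poles in mitosis, and its older centriole can carry a primary cilium. Many of its scaffolds are very long coiled-coil proteins, and some of their messages, those of pericentrin, ASPM and ninein among them, are known to be brought to the centrosome while they are being translated. Several of the genes, including Aspm, Cdk5rap2 and Cenpj, are mutated in inherited microcephaly.

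The name large fits the annotation. Coding lengths, averaged over each gene's transcripts by their reads, ran from 4032 nt for Cenpj to 11337 nt for Akap9, against a median of 1345 nt over the 12233 tested genes with a coding sequence. All 10 fell in the longest 10% of those genes, at the 93.7th percentile for Cenpj and higher for the rest. Their base composition was less uniform: the GC content of the transcripts went from 38.0% for Cep290 to 57.4% for Cep250, and 8 of the 10 lay below the median of all tested genes, 50.8%. To show this spread, 90-base in-frame stretches of coding sequence are printed for the messages at both ends of the GC range and for Aspm and Cenpj, which had the lowest fold changes. Each is the first stretch whose GC content is nearest that of its whole coding sequence, read from GENCODE mouse release 21 (build GRCm38, another build than the authors' GRCm39, so no genome positions are given), with G and C in capitals.
Cep290: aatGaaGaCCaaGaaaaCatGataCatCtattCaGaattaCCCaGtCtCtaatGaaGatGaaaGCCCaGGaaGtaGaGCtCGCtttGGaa
Pcm1: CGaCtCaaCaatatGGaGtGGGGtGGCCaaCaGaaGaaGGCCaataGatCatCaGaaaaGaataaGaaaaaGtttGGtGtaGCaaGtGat
Aspm: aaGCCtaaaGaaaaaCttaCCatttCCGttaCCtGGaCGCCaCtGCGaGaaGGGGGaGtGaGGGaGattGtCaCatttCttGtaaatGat
Cenpj: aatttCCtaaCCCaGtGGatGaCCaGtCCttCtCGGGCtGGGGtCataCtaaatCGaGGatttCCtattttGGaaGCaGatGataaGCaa
Pcnt: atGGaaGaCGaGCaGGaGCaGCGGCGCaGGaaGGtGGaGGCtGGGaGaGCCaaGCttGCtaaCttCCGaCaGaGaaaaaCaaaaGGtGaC
Cep250: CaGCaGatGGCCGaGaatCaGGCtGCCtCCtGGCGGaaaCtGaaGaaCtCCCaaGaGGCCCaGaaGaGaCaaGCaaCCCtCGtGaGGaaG
The Cep290 stretch (transcript Cep290-206, chromosome 10, coding bases 124 to 213) holds 35 G or C letters. Those of Pcm1 (Pcm1-204, chromosome 8, coding bases 82 to 171), Aspm (Aspm-201, chromosome 1, coding bases 271 to 360) and Cenpj (Cenpj-201, chromosome 14, coding bases 43 to 132) hold 37, 40 and 40. The Pcnt stretch (Pcnt-202, chromosome 10, coding bases 1 to 90) holds 50, and that of Cep250 (Cep250-204, chromosome 2, coding bases 82 to 171) holds 52.

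At the third base of codons, where most changes leave the amino acid alone, G or C stood in 32.9% of Pcm1 codons and 65.9% of Cep250 codons, around a median of 61.4% over all genes. Pcnt, at 65.2%, was the other member above that median. The coding sequences shared a high content of codons for glutamate and glutamine, residues frequent in coiled coils: 9 of 10 lay above the all-gene median for each. Glutamate codons made up 15.5% of Cep250 and 15.3% of Nin, against a median of 6.93% over all genes, and Aspm, at 4.37%, was the member below it. Lysine codons were above the all-gene median of 5.67% in 8 of 10 members and highest in Cep290, at 12.4%.

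The libraries held 7.84e+06 to 1.16e+07 estimated read counts. The 10 messages together took 1348 to 3418 of these, and a single message from 15 (Cep290 in an eluate) to 828 (Cep192 in a pellet). All 10 markers of embryonic stem cells were present, at 9475 to 10122 CPM (reads of a gene scaled to a common library total) in sum in the pellets and 11985 to 12103 in the eluates. The 6 fibroblast or feeder markers summed to 9.77 to 13.3 CPM in the pellets and 15.7 to 21.4 in the eluates, almost all of it Thy1, with Postn at 0. The 8 markers of differentiating lineages summed to 24.3 to 27.1 and 27.2 to 31.1 CPM, and the part of these cells in the results was not tested. Mitochondrial transcripts took 4.36% of matched counts in pellet 1, 6.56% and 7.20% in the other pellets and 2.21% to 2.67% in the eluates, so values without pellet 1 are given where they matter.

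The 10 messages added up to 289 CPM in pellet 1, 346 in each other pellet, and 136, 157 and 135 in the eluates by number. Here and below CPM is scaled with TMM factors, and a lower value is a smaller share of a bulk library. A level in either kind of library cannot tell fewer cells holding a message from less message per cell. Each of the 10 had every eluate below every pellet, a pattern seen in 31.2% of all genes tested, with the opposite pattern in 29.1%. All 10 were also called lower at an adjusted p under 0.05 (edgeR's quasi-likelihood test over all genes), where 28.2% of all genes were called lower and 24.5% higher. Since that contrast was in view when the members were listed, nothing is read from either count. The fitted log2 fold changes of eluate over pellet ran from -2.23 to -0.64, with a median of -1.19, against a median of 0.0035 over all genes. Of the 10, 6 lay below -0.96, the 10th percentile of all genes.

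**Figure D1:**
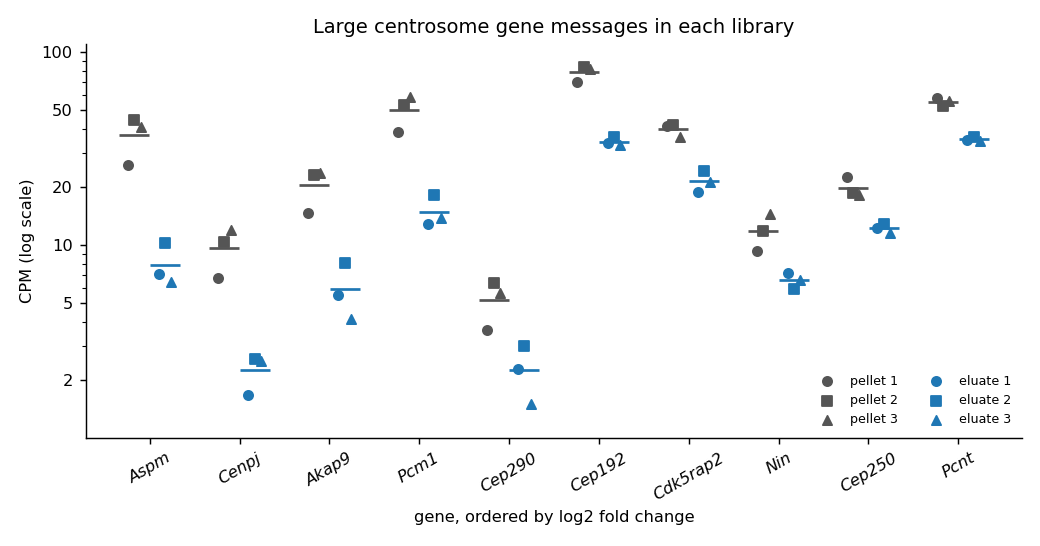
TMM-scaled CPM on a log axis for each of the 10 messages in pellets 1 to 3 (grey) and eluates 1 to 3 (blue), with symbols for the replicate number and short bars at the group means. Eluates lie below pellets for each gene, with the widest gaps for Aspm and Cenpj and the narrowest for Pcnt, Cep250 and Nin.

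Aspm, a spindle pole protein that binds microtubule minus ends and carries many calmodulin-binding repeats, had the largest decrease. In the order of the replicate numbers, kept for every gene below, the pellets held 25.9, 44.5 and 40.6 CPM and the eluates 7.06, 10.2 and 6.41 CPM. Pellet 1 was the lowest pellet, and even there the level was above that of each eluate. The log2 fold change was -2.23 ± 0.24 (SE, n = 3 per group), which put Aspm at the 0.227th percentile of all genes.

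Among the proteins of the pericentriolar material, Pcnt and Cdk5rap2 changed less than Cep192 and Akap9. Pcnt, or pericentrin, is a scaffold that holds gamma-tubulin complexes. It was at 57.5, 52.7 and 55.4 CPM in the pellets and 35.0, 36.4 and 34.5 CPM in the eluates. Both groups were tight, with pellet 1 the highest pellet, and the log2 fold change was -0.64 ± 0.084, the smallest decrease of the 10. Cdk5rap2, which activates gamma-tubulin complexes, was at 41.5, 41.6 and 36.1 CPM in the pellets and 18.8, 24.0 and 21.1 CPM in the eluates. The groups did not overlap, with pellet 3 the lowest pellet and eluate 2 the highest eluate, and the log2 fold change was -0.90 ± 0.11. Cep192 brings Aurora A and Plk4 to the centrosome. It was at 69.5, 83.8 and 81.9 CPM in the pellets and 33.8, 36.2 and 32.9 CPM in the eluates. Its eluates differed by little, and its log2 fold change was -1.19 ± 0.092. Akap9, which anchors protein kinase A and gamma-tubulin complexes at the centrosome and Golgi, was at 14.7, 23.1 and 23.5 CPM in the pellets and 5.49, 8.09 and 4.10 CPM in the eluates. Pellet 1 was low among the pellets and eluate 2 high among the eluates, and the log2 fold change was -1.78 ± 0.25.

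Of the proteins of the centrioles themselves, Cenpj fell near the level of Aspm while Cep250 and Nin changed less. Cenpj, also named CPAP, sets the growth of the centriole. It was at 6.76, 10.3 and 11.9 CPM in the pellets and 1.66, 2.55 and 2.50 CPM in the eluates, with a log2 fold change of -2.11 ± 0.25. These eluate values rest on 19, 28 and 25 estimated counts. Cep250, or C-Nap1, is part of the linker that ties the centrioles of a pair together. It was at 22.4, 18.6 and 18.2 CPM in the pellets and 12.2, 12.8 and 11.5 CPM in the eluates. Pellet 1 was the highest pellet, and the log2 fold change was -0.69 ± 0.13. Nin, or ninein, anchors microtubules at the subdistal appendages of the older centriole. It was at 9.33, 11.7 and 14.4 CPM in the pellets and 7.15, 5.91 and 6.61 CPM in the eluates. The gap between the lowest pellet and the highest eluate was narrow, and the log2 fold change was -0.85 ± 0.18.

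The remaining members act around the centrosome and at the base of the cilium. Pcm1 is the scaffold of centriolar satellites, granules that carry centrosome proteins. It was at 38.2, 53.1 and 58.5 CPM in the pellets and 12.8, 18.1 and 13.7 CPM in the eluates. The lowest pellet was well above the highest eluate, and the log2 fold change was -1.75 ± 0.18. Cep290, a protein of the ciliary transition zone, was the least abundant member. It was at 3.61, 6.38 and 5.61 CPM in the pellets and 2.27, 3.00 and 1.50 CPM in the eluates, and the 3 pellets together gave 136 counts and the 3 eluates 74. Pellet 1 came near eluate 2, and the log2 fold change was -1.20 ± 0.29. Without both libraries numbered 3 the value for Cep290 was -0.93 and it was no longer called.

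The authors' deposited table, which holds genes with an adjusted p under 0.05, lists all 10 as lower in the eluates. Its log2 fold changes, from the authors' deposited table, go from -2.17 for Aspm to -0.67 for Cep250, and the largest gap to the values above is 0.0936, for Cep290. It was made from the same libraries and adds no replicate. With DESeq2 on the counts used here 25.2% of all genes tested were called lower. The members were chosen with this contrast in view, so nothing is read from their listing.

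Levels can be compared between genes only per length, as TPM, a length-scaled abundance whose total is the same in each library. Cep192 was the most abundant of the 10 in the pellets at 10.3 ± 0.175 TPM (SD, n = 3). It was followed by Pcm1 at 8.56 ± 1.21, Pcnt at 5.90 ± 0.645 and Aspm at 4.02 ± 0.764 TPM. Cdk5rap2 at 3.34, Cep250 at 2.44 and Cenpj at 2.39 TPM came next, then Akap9 at 1.62, Nin at 1.46 and Cep290 at 0.764 TPM. In this pellet order the ranges of neighbours overlapped for Aspm and Cdk5rap2, Cdk5rap2 and Cep250, Cep250 and Cenpj, and Akap9 and Nin. In the eluates Cep192 was again first at 4.40 ± 0.138 TPM, but Pcnt at 3.46 ± 0.0667 now stood above Pcm1 at 2.56 ± 0.425 TPM. Cdk5rap2 at 1.68 and Cep250 at 1.43 TPM stood above Aspm, which was at 0.839 ± 0.197 TPM. Nin at 0.785, Cenpj at 0.544, Akap9 at 0.457 and Cep290 at 0.339 TPM were the lowest. The eluate ranges of neighbours overlapped for Cdk5rap2 and Cep250, Aspm and Nin, Cenpj and Akap9, and Akap9 and Cep290.

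For Akap9, Cdk5rap2, Cenpj and Cep192 every read was assigned to 1 transcript, and for Aspm nearly every one. Reads of the other members were split between transcripts that share most of their sequence, and the split moved between libraries of a group. Cep250 went wholly to a transcript of 7977 nt in pellet 1 and wholly to one of 7979 nt in pellet 2. For Pcm1 a transcript of 6624 nt took 60.3%, 49.9% and 52.9% of the gene's reads among the pellets and 35.6%, 32.5% and 52.5% among the eluates. The shares of pellet 2 and eluate 3 overlap, so no shift between the Pcm1 transcripts is read from them. For Pcnt the transcript Pcnt-202 took 82.2%, 71.0% and 76.1% in the pellets and 50.2%, 75.0% and 52.8% in the eluates, which overlap too. Gene totals were therefore used throughout.

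The decrease tended to be larger for members with less G and C. Across the 10 genes Pearson's r between GC content and log2 fold change was 0.64 and Spearman's rho 0.75. Over all 13231 genes rho was 0.71, and these are descriptions of points that share the same 6 libraries. Coding length, with a range of long values only, had a rho of -0.13 across the 10, against -0.42 over the 12233 coding genes. Aspm, Cenpj, Cep192 and Akap9 have almost the same GC content, 44.3% to 44.8%, and yet ranged from -2.23 to -1.19. Among tested genes ordered by GC in 10 equal groups, these 4 fall in the second, where the median log2 fold change was -0.56 and 64.1% of genes were called lower. Cep290 and Pcm1 fall in the first, with a median of -0.94 and 79.9% called lower. Pcnt and Cep250 fall in groups 8 and 9, where the medians were 0.30 and 0.35 and where 2.80% and 1.97% of genes were called lower.

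**Figure D2:**
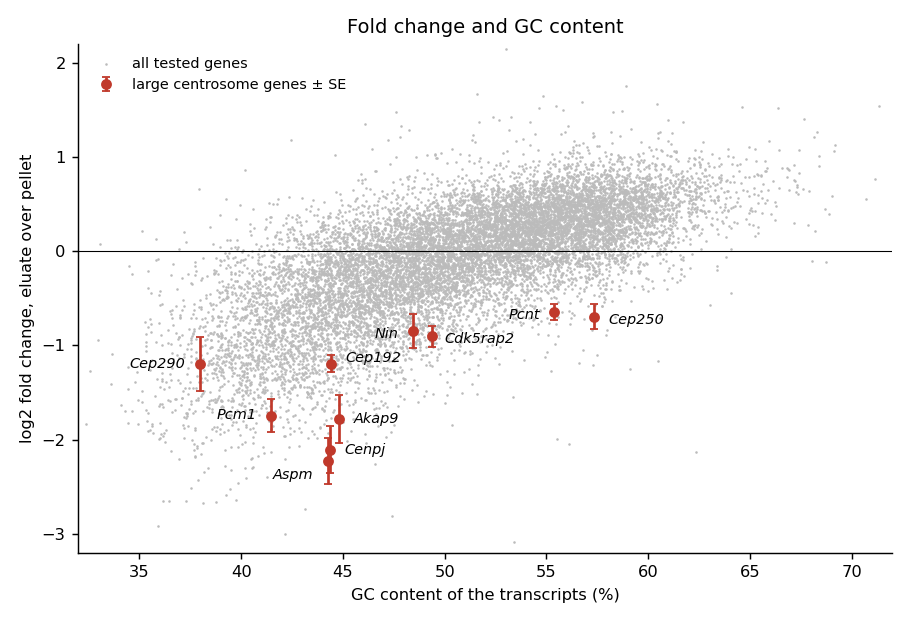
Log2 fold change of eluate over pellet against the GC content of the transcripts, with all tested genes in grey and the 10 large centrosome genes in red with their SE; 18 genes lie outside the axes. Each red point lies below the median of the genes of like GC content: Pcnt and Cep250 are at -0.64 and -0.69 where the medians were 0.30 and 0.35, and Cep290 is at -1.20 where it was -0.94.

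Removing each library's smooth trend in GC content made the decreases smaller for 8 members and larger for Pcnt and Cep250. The median of the 10 went from -1.19 to -0.94, and 9 were called lower, where 18.8% of all genes were called lower and 22.3% higher. Aspm was then at -1.67, Cenpj at -1.56, Pcm1 at -0.97 and Cep192 at -0.66, while Cep250 and Pcnt moved further down, to -1.04 and -0.90. Cep290 was at -0.15 and not called. With the trend in transcript length removed as well, the median was -0.53 and 8 were called lower, where 15.9% of all genes were called lower and 19% higher. Cenpj at -1.49 ± 0.22 and Aspm at -1.28 ± 0.17 then had the largest decreases. Akap9 was at -0.77, Pcm1 at -0.73, Cep250 at -0.63 and Pcnt at -0.44. Cep192, at -0.33, and Cdk5rap2, at -0.27, were small but called, Nin was at -0.27 and not called, and Cep290 was at 0.17 ± 0.24.

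**Figure D3:**
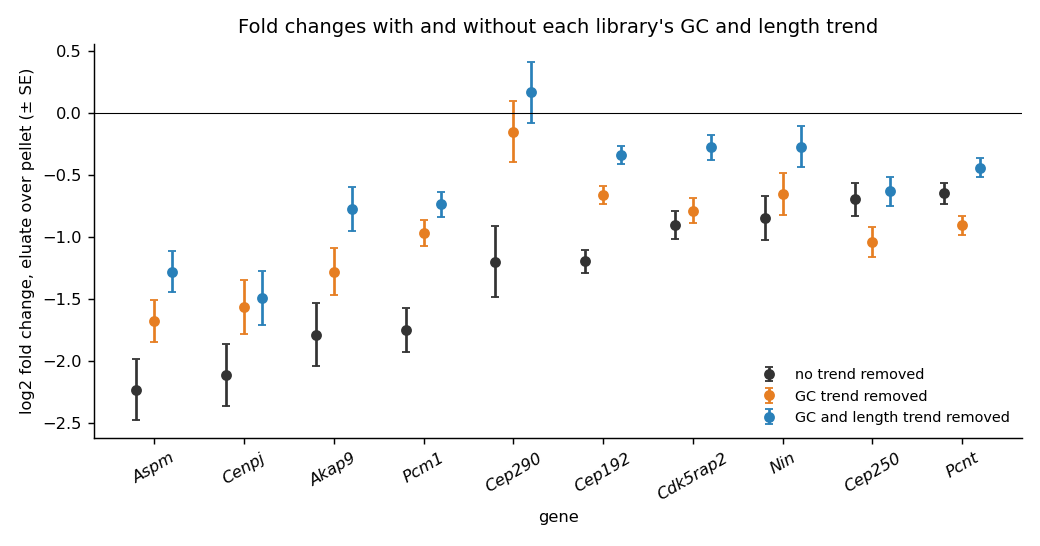
Log2 fold changes of eluate over pellet with their SE for the 10 genes, fitted without correction (black), with each library's GC trend removed (orange) and with its GC and length trend removed (blue). Aspm and Cenpj stay lowest in each fit, Cep250 and Pcnt are lower after the GC trend is removed, and Cep290 moves to 0.17.

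The pellets also differed among themselves, and these differences followed GC. Relative to pellets 2 and 3, pellet 1 was lower in log2 CPM by 0.71 for Aspm, 0.70 for Cep290, 0.70 for Cenpj and 0.66 for Akap9, and higher by 0.28 for Cep250. Across the 10 genes rho between this difference and GC content was 0.84, and over all genes it was 0.59. Without pellet 1 the median log2 fold change of the 10 was -1.34 in place of -1.19. Of the eluates, eluate 2 was nearest the pellets for 9 of the members, and the exception was Nin.

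**Figure D4:**
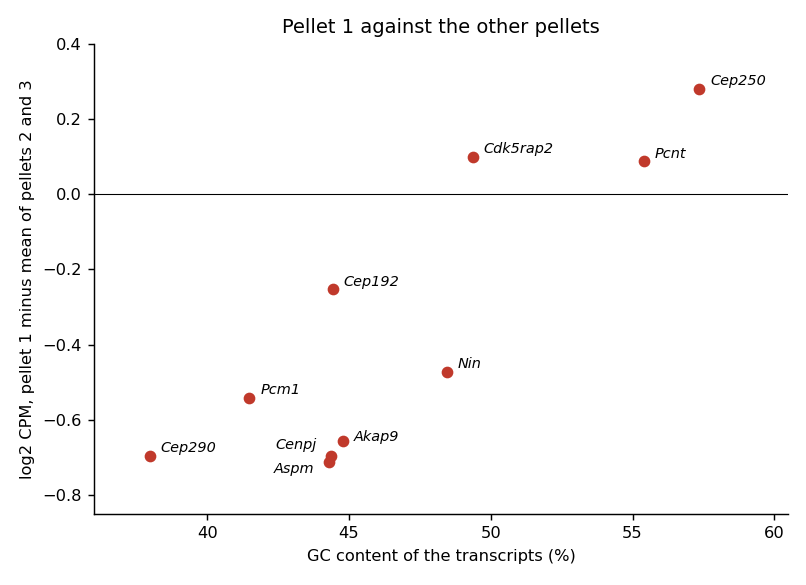
Difference in log2 CPM between pellet 1 and the mean of pellets 2 and 3 against GC content, 1 point per gene. The genes with low GC content, Aspm, Cep290 and Cenpj among them, were lower in pellet 1, and Cep250 was higher by 0.28.

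Other centrosome and spindle pole genes were lower in the eluates more often than higher, and those that rose had a shorter median coding length and a higher median GC content than those that fell. Of 103 such genes in 6 lists by function, 102 were tested: 56 fell, 11 rose and 35 did not pass, with a median log2 fold change of -0.43. Among all genes tested 28.2% were called lower and 24.5% higher, against medians of 0.0035. The 56 that fell had a median coding length of 2745 nt and a median GC of 44.8%, and the 11 that rose had 1189 nt and 54.9%. The 35 that did not pass had a median GC of 54.8%, close to that of the genes that rose. The number that rose was 18 without pellet 1 (all genes: 27.5% higher) and also 18 without both libraries numbered 1 (all genes: 26.4% higher). It was 7 without both numbered 3 (all genes: 14.5% higher). With upper-quartile scaling 50 fell and 20 rose, where 24.1% of all genes were called lower and 30.6% higher. With the GC and length trend removed 31 fell and 9 rose, and the median was -0.16. In that fit 15.9% of all genes were called lower and 19% higher.

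Of 13 centriolar satellite genes tested, 11 fell and 0 rose (all genes: 28.2% lower, 24.5% higher), with a median of -0.83. With GC removed 6 fell (all genes: 18.8% lower, 22.3% higher). With GC and length removed 5 fell (all genes: 15.9% lower, 19% higher), with a median of -0.35, and 0 rose in either fit. The other 2, Cep131 and 4933427D14Rik, were at -0.33 ± 0.14 and -0.97 ± 1.47 and did not pass. Mib1, a ubiquitin ligase found at satellites, fell by 1.29 on the log2 scale (SE 0.14; edgeR adjusted p = 1.86e-06). It did not pass with the GC and length trend removed (-0.26, edgeR adjusted p = 0.0621). Fgfr1op, the most abundant of the list, fell by 0.45 (edgeR adjusted p = 0.00206) and was at 0.13 and not called with both trends removed. Cep350, a large satellite and centriole protein chosen after its values were seen, fell by 1.50 ± 0.23 with no trend removed. Its values with the trends removed are not given here.

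Genes of centriole duplication and assembly fell in 16 of 23 cases, with 1 higher (all genes: 28.2% lower, 24.5% higher) and a median of -0.56. With GC removed 9 fell (all genes: 18.8% lower). With GC and length removed 7 fell (all genes: 15.9% lower), and the median was -0.17. Without both libraries numbered 3, 10 fell (all genes: 19.8% lower), and without pellet 1, 3 rose (all genes: 27.5% higher). Ccp110, which caps the growing centriole, fell by 1.05 ± 0.11 (44.7 ± 6.37 CPM in the pellets and 21.6 ± 0.370 in the eluates; edgeR adjusted p = 1.90e-06). It stayed lower with both trends removed, at -0.37. Ppp1r35, a short GC-rich message for a centriole elongation factor, rose by 0.78 ± 0.10 (edgeR adjusted p = 1.44e-05) and was at 0.026 and not called with both trends removed. Cetn3, a small calcium-binding centrin and the most abundant of the list, fell by 0.49 ± 0.12 (edgeR adjusted p = 0.00636). The call was lost without both libraries numbered 3 (adjusted p = 0.088), and the direction turned once GC was removed, to 0.54, where Cetn3 was called higher. With no trend removed Plk4, the kinase that starts duplication, fell by 1.11, and Cep295 by 1.59. These 2 were picked with their values known, and their values with the trends removed are not given here.

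Of 10 genes of the gamma-tubulin ring complex and its recruiters, 6 fell and 2 rose (all genes: 28.2% lower, 24.5% higher). With GC and length removed 2 fell and 2 rose (all genes: 15.9% lower, 19% higher). Nedd1, which carries the ring complex to the centrosome, fell by 1.11 ± 0.14 (edgeR adjusted p = 1.23e-05). Mzt2, a small subunit, rose by 0.70 ± 0.087 (edgeR adjusted p = 8.36e-06), and so did Tubg1, gamma-tubulin itself, by 0.53 ± 0.077 (57.1 ± 2.19 CPM in the pellets and 82.4 ± 3.55 in the eluates; edgeR adjusted p = 3.49e-05). With both trends removed Nedd1, at -0.32, and Tubg1, at 0.095, were no longer called, and Mzt2 stayed higher at 0.22.

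Genes of the centriole appendages and linker were lower in 8 of 16 cases and higher in 1 (all genes: 28.2% lower, 24.5% higher), with a median of -0.29. The number lower was 5 with both trends removed (all genes: 15.9% lower) and 4 without both libraries numbered 3 (all genes: 19.8% lower). Without pellet 1, 2 were higher (all genes: 27.5% higher). Cntrl, or centriolin, an appendage protein with a coding length of 5960 nt, fell by 1.05 ± 0.13 (edgeR adjusted p = 5.44e-06). Ccdc120 rose by 0.68 ± 0.13 (edgeR adjusted p = 0.000301). Odf2, the most abundant, fell by 0.17 ± 0.066 (edgeR adjusted p = 0.0402), a call that was lost with upper-quartile scaling (-0.079), with DESeq2 (adjusted p = 0.082), without the low-count filter and in 7 of the 9 fits that left libraries out. Long members with GC content above the all-gene median, named after their values were seen, did not all behave alike. The rootlet protein gene Crocc, at 0.15 ± 0.14 (GC 63.8%), and the distal appendage gene Cep164, at 0.0074 ± 0.11 (GC 56.3%), did not pass. Ninl, with a coding length of 4182 nt and a GC content of 53.4%, fell by 0.49 ± 0.13 and was called lower.

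In the ciliary transition zone, where Cep290 acts, 5 of 16 tested genes fell and 3 rose, with a median of 0.18. Over all genes tested 28.2% were called lower and 24.5% higher, so nothing about the list is read from its counts. Iqcb1, which binds Cep290, fell by 0.95 ± 0.15 (edgeR adjusted p = 7.78e-05), and Tmem107, a small membrane protein, rose by 0.59 ± 0.11 (edgeR adjusted p = 0.000296). Iqcb1 was not called with GC alone removed but was called lower with GC and length removed, at -0.36 (edgeR adjusted p = 0.0150). Tmem107 was at 0.20 and not called with GC and length removed (edgeR adjusted p = 0.132). B9d1, the most abundant, was at 0.23 ± 0.10 (edgeR adjusted p = 0.0688), with calls in both directions under other settings: higher at 0.32 with upper-quartile scaling and lower at -0.25 with both trends removed. With upper-quartile scaling 7 genes of this list rose and 5 fell (all genes: 30.6% higher, 24.1% lower). Without pellet 1 the numbers were 6 and 6 (all genes: 27.5% higher, 29.9% lower). Without both libraries numbered 3 they were 1 and 5 (all genes: 14.5% higher, 19.8% lower).

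Among 24 spindle pole and spindle assembly factors, 10 fell, 4 rose and 10 did not pass (all genes: 28.2% lower, 24.5% higher). The number that rose was 1 with both trends removed (all genes: 19% higher) and 2 without both libraries numbered 3 (all genes: 14.5% higher). Ckap5, a microtubule polymerase of 6095 coding nt, fell by 1.30 ± 0.11 (72.9 ± 8.57 CPM in the pellets and 29.6 ± 3.995 in the eluates; edgeR adjusted p = 4.19e-07) and stayed lower with both trends removed, at -0.46. Aurka, the kinase that Cep192 and Tpx2 bind, rose by 0.25 ± 0.073 (134 ± 9.98 CPM in the pellets and 159 ± 6.14 in the eluates; edgeR adjusted p = 0.00983). Its call was lost without eluate 1 (adjusted p = 0.054), without both libraries numbered 2 or both numbered 3, with limma on TPM and with both trends removed (0.12). With upper-quartile scaling the median of the list was -0.0027 in place of -0.093.

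**Figure D5:**
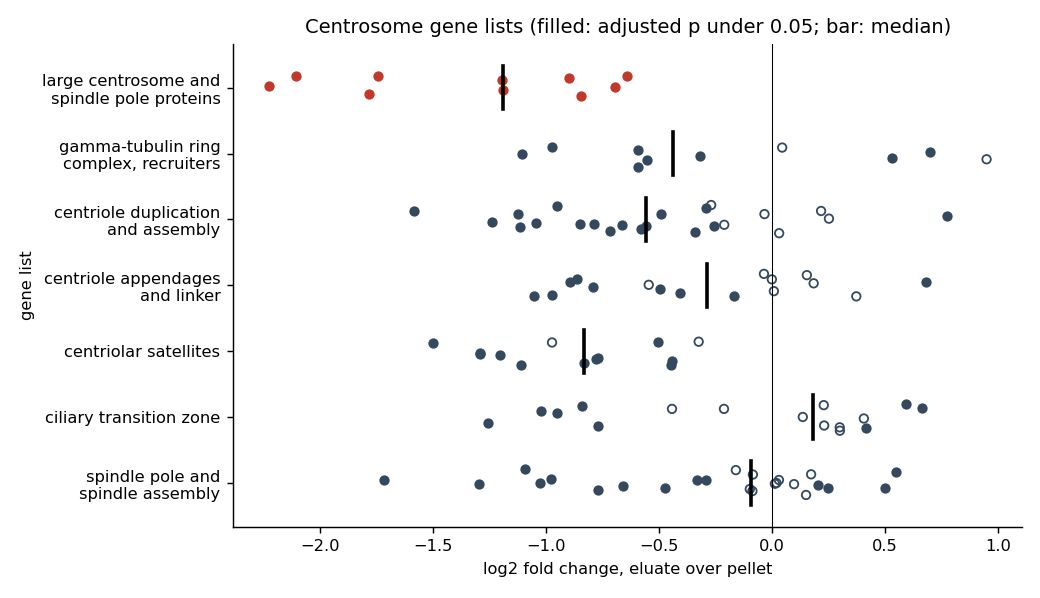
Log2 fold change of eluate over pellet for each gene of the large centrosome group (red) and of 6 lists of other centrosome and spindle pole genes (dark blue), with called genes filled, others open, and a bar at each median. The satellites have no called gene above 0, the transition zone has called genes on both sides, and the medians run from -1.19 for the large centrosome group to 0.18 for the transition zone.

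The messages whose profile over the 6 libraries was most like the median of the 10 members were Usp24, Rictor, Tet2, Las1l and Actr6. Likeness was the Euclidean distance between log2 CPM profiles centred on their means, at 0.114 to 0.126, among genes with a mean of at least 10 CPM. Their log2 fold changes ran from -1.34 to -1.22, their coding lengths from 1188 nt for Actr6 to 7851 nt for Usp24, and their GC content from 38.1% for Actr6 to 50.1% for Las1l.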

How the data were processed

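Poly(A) RNA was measured in 3 pellet and 3 eluate libraries, grouped by their titles. Per the file headers, each deposited file is the authors' Salmon output per transcript, with estimated counts, TPM and lengths. The submitters' processing notes name cutadapt 4.7, STAR 2.7.11b, Salmon 1.10.3, DESeq2 1.44.0 and GRCm39, with no role or order; annotation and tool settings: not given in the sources used here. In the authors' deposited comparison are, per the file headers, a mean signal of normalized counts, log2 fold changes, a Wald score and p-values; its genes have an adjusted p under 0.05.

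GENCODE mouse release 21 holds the identifiers of 76858 of the 84226 transcripts; the rest held 1.63% to 2.35% of a library's counts and were left out. Estimated counts were summed per gene and rounded. The test was edgeR 4.0.16 in R 4.3.3 (quasi-likelihood, robust, TMM, default low-count filter, Benjamini-Hochberg over 13231 genes, adjusted p under 0.05). The SE is the absolute log2 change divided by the square root of F. The fit was tested on simulated data, where the share of false calls exceeded the nominal threshold, so counts of calls may hold more false ones than it implies. GC and length trends were natural splines with 5 degrees of freedom per library, entered as offsets. Other tools were DESeq2 1.42.0, limma 3.58.1, Python 3.11.15, pandas 2.3.3, numpy 2.4.6, scipy 1.17.1 and matplotlib 3.10.9.

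The labels call the samples replicates without naming separate cultures; p-values therefore describe only how far these samples spread, which may be technical. Counts of genes with near-identical copies are uncertain. Members, lists and tests were chosen with earlier results of these data known. Named were all members, and in each centrosome list the most abundant gene and, for each direction, the gene of smallest p; 1 gene that this rule names is not reported here. The most abundant gene of each comparison list and the 5 most similar profiles (unnamed or provisional symbols left out) were named too.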

Additional observations from a re-analysis of the deposited data

How the results depend on the processing

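Over 23 other settings the 10 log2 fold changes gave 230 values, of which 224 kept both direction and call. The settings reuse the same 6 libraries, and the members were listed with this contrast in view. The number kept therefore describes the processing only, and nothing about the members is read from it. Cep290 turned to 0.17 with the GC and length trend removed and to 0.16 with the replicate number as a block beside it, and lost its call with GC alone removed and without both libraries numbered 3; Nin lost its call where both trends were removed. The median of the 10 was -0.77 with limma on log2(TPM + 1), where the pseudocount shrinks low genes, -0.94 with GC removed, -0.53 with GC and length removed and -0.53 with the block as well. It ran from -1.34 to -1.04 with libraries left out, when 9 to 10 were called lower. Other centrosome genes called lower numbered 37 with GC removed, 31 with GC and length removed and 30 with the block too, and 41 to 59 with libraries left out; those called higher numbered 20 with upper-quartile scaling and 7 to 18 with libraries left out. Over all genes 3736 were called lower and 3241 higher; lower calls numbered 2489, 2107 and 2088 in those 3 trend fits and 2662 to 4039 with libraries left out, and higher calls 1960 on TPM and 1949 to 3722 with libraries left out. The cause of these shifts was not tested.

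Libraries with the same number deviated together with correlations of 0.069, 0.15 and -0.018, and those of unlike numbers with -0.18 to 0.11. With 3 libraries per group these values cannot decide whether the numbers mark pairs, though pellets and eluates came from divided cushions. The libraries were left unpaired in the fit reported above. The replicate block alone gave 7076 calls in place of 6977 over all genes and the same 10 members lower. Of the other centrosome genes 57 were then lower and 14 higher (all genes: 28.5% lower, 25% higher). With both libraries of a number left out, each group had 2 samples. Depth limits Cep290 and Cenpj most, at 15 to 63 and 19 to 102 counts per library.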

Other observations

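Counts for motor and tubulin messages from all 6 libraries with TMM scaling and no trend removed stand beside 28.2% of all genes called lower and 24.5% called higher. Of 14 tested mitotic kinesin genes, 11 were lower in the eluates and 0 higher (median log2 fold change -1.09). Kif20a, a kinesin of cytokinesis and the most abundant of them, was lower by 0.62 on the log2 scale, at 156 ± 9.21 CPM in the pellets and 102 ± 5.03 in the eluates (SD, n = 3 each; edgeR adjusted p = 4.95e-06). Of 20 tested genes of cytoplasmic dynein and dynactin, the motor that carries satellites to the centrosome, 7 were lower and 11 higher (median 0.27). Dynll1, a light chain with a coding length of 267 nt, was higher by 0.38 ± 0.064 (475 ± 14.6 CPM in the pellets and 619 ± 29.1 in the eluates; edgeR adjusted p = 0.000131). Of 10 tubulin genes 0 were lower and 3 higher, and Tuba1b was at 0.067 ± 0.064 (edgeR adjusted p = 0.396). The number of tubulin genes higher was 5 without pellet 1 (all genes: 27.5% higher). It was 6 with upper-quartile scaling (all genes: 30.6% higher) and 1 without both libraries numbered 3 (all genes: 14.5% higher). With the GC and length trend removed 15.9% of all genes were called lower and 19% higher. In that fit 10 kinesin genes were lower, and 3 dynein and dynactin genes were lower and 11 higher. Of the tubulin genes 6 were then lower and 1 higher, Tuba1b at -0.30 among the lower. The differences between these lists and the large centrosome genes were not tested.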
